A study of Homo sapiens with 9 samples.

Results

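RNA polymerase III structural RNAs are short, stable, non-coding RNAs that serve as scaffolds of RNA-protein particles. The set described here comprised 10 genes named in advance by symbol: the 7SL genes RN7SL1, RN7SL2 and RN7SL3, the 7SK gene RN7SK, the nuclease RNAs RMRP and RPPH1, the Y RNA genes RNY1 and RNY3, and the vault RNA genes VTRNA1-1 and VTRNA1-3. A row with a member's symbol was found for 6 of the 10 among 30956 genes: RN7SL1, RN7SL3, RMRP, RNY1, RNY3 and VTRNA1-3. RN7SL2, RN7SK, RPPH1 and VTRNA1-1 were not analysed here. The choice used no measured value of these RNAs, though earlier results of these data were known when it was made.

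The study set RNA that co-purified with V5-tagged CNOT7 against input RNA in HEK293T cells, an established human embryonic kidney line. CNOT7 is a nuclease subunit of CCR4-NOT, the complex that removes poly(A) tails from mRNA, and its D40A form was used to impair catalysis. The labels give 9 libraries of cytoplasmic RNA depleted of ribosomal RNA: 3 RNA immunoprecipitation (RIP) libraries, 3 inputs after 24 h of doxycycline (3 µg/mL) and 3 inputs without doxycycline. The table held the 3 RIP libraries and 3 inputs, and its column names do not say which kind of input these were. The labels do not give the doxycycline state of the RIP libraries, how the tagged protein was expressed, whether the line is 1 clone, or whether replicates came from separate cultures. A control precipitation without the tag was not analysed here.

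As background, 7SL RNA is the scaffold of the signal recognition particle (SRP), which brings ribosomes that make secreted proteins to the endoplasmic reticulum. RMRP is the RNA of RNase MRP, a nucleolar particle that cleaves the ribosomal RNA precursor, and RPPH1 is the RNA of RNase P, which trims the 5′ ends of tRNA precursors. Y RNAs are bound by the Ro60 and La proteins, vault RNAs belong to the large cytoplasmic vault particle, and 7SK holds the transcription factor P-TEFb in an inactive nuclear particle. None of these RNAs is an mRNA, and none carries the long poly(A) tail on which CCR4-NOT acts on mRNA.

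The libraries held 37140622 to 40764899 reads in genes. RIP replicate 2 stood apart: 14786 genes had no reads in it, against 6398 to 6720 in the other RIP libraries and 10056 to 12079 in the inputs. Mitochondrially encoded RNA took 0.931% to 1.12% of RIP reads and 18.6% to 26.6% of input reads. The HEK293 markers VIM (27557 to 31429 normalized counts in the inputs) and PAX2 (556 to 668) were present, while ALB had no input reads and PECAM1 and HBA1 reached at most 10.5 and 6.98. Of the collagen genes listed as markers of other cells, COL1A1 had 375 to 545 normalized counts in the inputs and COL3A1 0 to 58.1. MALAT1, a nuclear long non-coding RNA, had 5875 to 8907 normalized counts in the inputs although the RNA was labelled cytoplasmic. A normalized count is the number of reads of a gene divided by the authors' size factor of the library.

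Every member with a row was lower in RIP than in input. In all 6, every RIP library lay below every input library, and 5 passed the filter for testing, a mean of at least 10 normalized counts over the 6 libraries. Of these 5, all 5 were called lower by limma at an adjusted p below 0.05, where 3550 of all 16765 tested genes (21.2%) were called lower. All 5 were at least 2-fold lower, against 10.6% of tested genes, and none was higher, against 22.4%. Among tested genes, 27.3% had every RIP library below every input library. The median log2 fold of the 5 was -3.22, beside -0.04 for all tested genes. Each of the 5 passed the filter in RIP alone too, with VTRNA1-3 the lowest at a RIP mean of 31.5. RNY3 did not pass it. A fold compares the relative levels of an RNA in RIP and in input and gives no absolute amount recovered. In the bulk input itself, fewer cells with an RNA and less of it per cell cannot be told apart.

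The members together took 0.0619%, 0.0557% and 0.0821% of reads in RIP replicates 1, 2 and 3. Their share was 0.371%, 0.366% and 0.431% in the inputs 1, 2 and 3. The mean share was thus 0.0665% ± 0.0138 (SD, n = 3) in RIP and 0.390% ± 0.0362 (SD, n = 3) in input, with no overlap and a ratio of 5.92 by the mean of log2 values. The share of mitochondrially encoded RNA moved with the members. With that RNA taken out of the totals the ratio was 7.58, and on the deposited normalized counts it was 8.34.

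**Figure D1:**
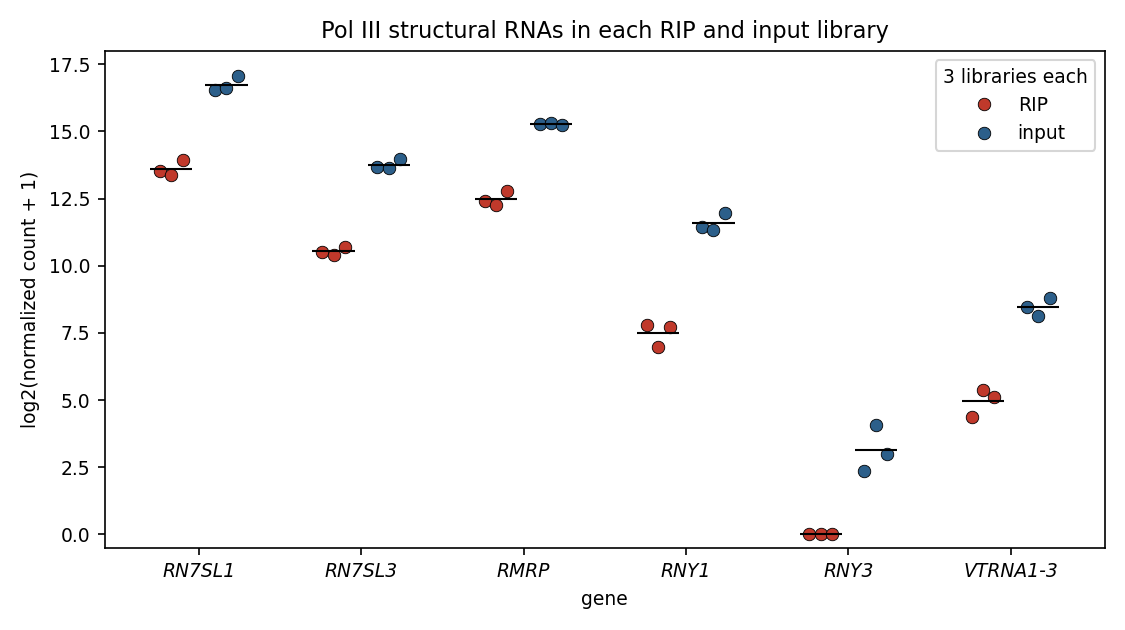
Level of each member in each library, as log2(normalized count + 1), with RIP in red, input in blue and a bar at the mean of 3 libraries. The RIP points lie below the input points for all 6 members, and RNY3 has no reads in any RIP library.

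RN7SL1 was the most abundant member in both groups, while the 7SL gene RN7SL3 stood below RMRP. RN7SL1 lies at chr14:49586580-49586878 and RN7SL3 at chr14:49853616-49853914 (GRCh38.p14, RefSeq), each 299 bases long, with 266737 bases between them. RN7SL1 had 11849, 10526 and 15654 normalized counts in RIP replicates 1, 2 and 3. It had 95452, 100096 and 136155 in inputs 1, 2 and 3. The lowest input was 6.10 times the highest RIP library, although the third library of each group was the highest of its group. The log2 fold of RIP over input was -3.13 (SE 0.18, 95% interval -3.51 to -2.74, n = 3 against 3), an 8.73-fold lower level, with a limma adjusted p of 3.65e-07.

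RN7SL3 had 1448, 1363 and 1674 normalized counts in RIP and 13089, 12732 and 16083 in input. Its groups were further apart than those of RN7SL1, with the lowest input at 7.60 times the highest RIP library. The log2 fold of RN7SL3 was -3.22 (SE 0.13, 95% interval -3.51 to -2.93), with a limma adjusted p of 2.69e-08. RN7SL1 and RN7SL3 are near-identical copies, and how the authors counted reads that fit several copies is unknown here, so their split is uncertain. A sum over all 192 rows of the 7SL family gave 13565, 12003 and 17569 in RIP and 109092, 113350 and 152739 in input. That sum was lower in RIP by a log2 fold of -3.12 (SE 0.17, limma adjusted p = 3.18e-07), so the family's fold did not rest on the split.

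RMRP, at chr9:35657750-35658019 and 270 bases long, had 5492, 4853 and 7034 normalized counts in RIP. In the inputs it had 39136, 40246 and 38510, a spread of 2.24% of the mean (SD). The input libraries were thus nearly level for RMRP, whereas the RIP libraries spread by 19.4%. The log2 fold was -2.78 (SE 0.14, 95% interval -3.08 to -2.48), with a limma adjusted p of 1.56e-07. Against the inputs with columns, RMRP had the fold nearest 0 among the tested members, and its input was 6.86 times its RIP level. With all 6 inputs, for which only a mean is known, its log2 fold was -3.15, and RN7SL3 stood nearest 0 at -2.99.

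The Y RNA genes lie side by side on chromosome 7. RNY1 (chr7:148987136-148987248, 113 bases) and RNY3 (chr7:148983755-148983856, 102 bases) are separated by 3279 bases. RNY1 had 219, 124 and 209 normalized counts in RIP and 2784, 2586 and 3986 in input. RIP replicate 2 was the lowest RIP library, and the lowest input was still 11.8 times the highest RIP value. With a log2 fold of -4.09 (SE 0.26, 95% interval -4.65 to -3.53) and a limma adjusted p of 6.79e-07, RNY1 had the lowest fold of the tested members.

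RNY3 was near the limit of what was read. It had 0 reads in each RIP library and 4, 14 and 6 reads in inputs 1, 2 and 3. These input reads stand for 4.18, 16.0 and 6.98 normalized counts. The input mean of RNY3 was 3.84 times the mean of a floor of 3 reads in each RIP library. This ratio leaves out the spread of the RNY3 inputs (mean 9.05, SD 6.17), so it is not a lower bound. Without the filter on low counts, limma gave an adjusted p of 0.0519. The authors' deposited table called it lower at an adjusted p of 0.0104, and in that table all 6 members with a row were lower, beside 19.9% of the 20649 genes with an adjusted p.

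VTRNA1-3, at chr5:140726159-140726246 and 88 bases long, had 19.9, 41.0 and 33.7 normalized counts in RIP. In input it had 348, 279 and 440. RIP replicate 2, the lowest RIP library for RNY1, was the highest here. The log2 fold of VTRNA1-3 was -3.49 (SE 0.48, 95% interval -4.53 to -2.44), with a limma adjusted p of 9.77e-05. Its RIP reads were few, 122 over the 3 libraries (exact Poisson 95% interval 101 to 146), and such intervals cover counting error only.

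Leaving out RIP replicate 2, the library that stood apart, kept all 5 calls. The log2 folds then ran from -2.66 for RMRP to -3.83 for RNY1. The limma adjusted p was at most 8.32e-06 among them. Scaling to total counts raised the median of all tested genes by 0.49 on the log2 scale and left the 5 members lower, from -2.28 for RMRP to -3.60 for RNY1. Calls over all genes moved more: those higher in RIP made up 51.4% of called genes with the deposited size factors and 78.8% with total counts.

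**Figure D2:**
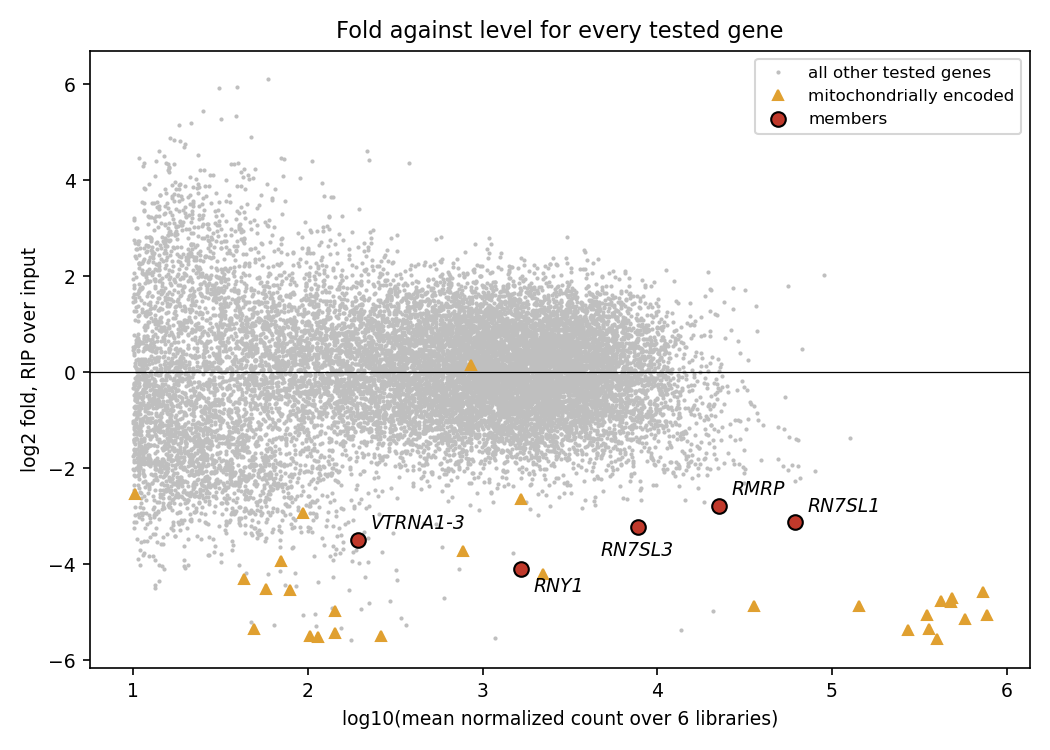
Log2 fold of RIP over input against the log10 mean normalized count over 6 libraries for 16765 tested genes, with members as red circles and mitochondrially encoded genes as yellow triangles. RN7SL1, RMRP and RN7SL3 lie below nearly all other genes of their level, and most mitochondrially encoded genes lie lower still.

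By fold, the 5 tested members were among the lowest 328 genes, though not at the extreme. RNY1 ranked 57 from the lowest of 16765 genes, VTRNA1-3 ranked 114, RN7SL3 ranked 169, RN7SL1 ranked 192 and RMRP ranked 328. Of the 328 genes with a fold at or below that of RMRP, 25 were mitochondrially encoded, 49 were annotated as other small RNAs (the members among them), 143 were other protein-coding genes and 62 were long non-coding RNAs. Only 25 of the 328 had a mean of at least 1000 normalized counts. Those 25 comprised 13 mitochondrially encoded genes, 4 members (RN7SL1, RN7SL3, RMRP and RNY1), 4 histone genes, 2 mitochondrial pseudogenes and the spliceosomal RNAs RNU4-2 and RNVU1-31.

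Levels per length put the members in 1 order in both groups. In CPM (reads of the gene scaled to a common library total) per kilobase of gene, RN7SL1 stood at 8595 ± 1272 (SD, n = 3) in input. RMRP followed at 3407 ± 224, RN7SL3 at 1089 ± 94.8, RNY1 at 641 ± 125, VTRNA1-3 at 94.0 ± 18.2 and RNY3 at 2.07 ± 1.42. In RIP the levels were 1398 ± 309 for RN7SL1, 708 ± 144 for RMRP, 165 ± 19.5 for RN7SL3, 53.7 ± 15.2 for RNY1 and 11.8 ± 4.08 for VTRNA1-3. Neighbours in this order differed by more than their SDs in both groups. Full gene lengths were used, without a correction for the read length of 75 bases. How well RNAs of 88 to 113 bases were recovered beside longer ones was not tested. Among all genes, RN7SL1 ranked 14 to 16 by normalized count in the inputs and 131 to 367 in RIP. RMRP ranked 49 to 56 in the inputs and 808 to 1651 in RIP.

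The folds followed another order, RNY1, VTRNA1-3, RN7SL3, RN7SL1 and RMRP from the lowest. With all 6 inputs the last 3 stood in the reverse order (RMRP -3.15, RN7SL1 -3.14, RN7SL3 -2.99), and without RIP replicate 1 VTRNA1-3 and RN7SL3 were level at -3.20. RNY1 was the lowest under each alternative. The interval of RNY1 did not overlap that of RN7SL3, RN7SL1 or RMRP, while that of VTRNA1-3 overlapped every other. Across the 5 tested members, length and log2 fold had a Pearson's r of 0.75 and a Spearman's rho of 0.56. The order was not strict, since RMRP is shorter than the 7SL RNAs with a fold nearer 0, and VTRNA1-3, the shortest, stood above RNY1. This is a description over 5 genes of the same libraries, without a test.

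Ratios between members within a library do not depend on its scaling. RN7SL1 was 8.18, 7.72 and 9.35 times RN7SL3 in RIP replicates 1 to 3 and 7.29, 7.86 and 8.47 times in inputs 1 to 3. The groups overlapped, and the mean log2 ratio differed by 0.09 (exact permutation test, two-sided, p = 0.5). This was the only planned pair that could be computed, since RNY3 had no RIP reads to give an RNY1 ratio and the other planned pairs include genes not analysed here. The pairs with RMRP, RNY1 or VTRNA1-3 over RN7SL1 were added after the data were seen.

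RMRP stood at 0.464, 0.461 and 0.449 of RN7SL1 in RIP and at 0.410, 0.402 and 0.283 in input. All RIP ratios were above all input ratios, by a mean log2 difference of 0.35 that fell to 0.17 without input 3. In the means of the inputs that have no column of their own, RMRP stood at 0.560 of RN7SL1, above every RIP ratio, so this direction does not extend to those inputs. RNY1 stood at 0.0185, 0.0118 and 0.0134 of RN7SL1 in RIP and at 0.0292, 0.0258 and 0.0293 in input. The RNY1 ratios did not overlap either, with RIP lower by a log2 difference of -0.96. The exact permutation test gave p = 0.1 for each of the 2 pairs, the smallest that 3 against 3 libraries allow, and 0.2 after Benjamini-Hochberg adjustment over the 4 pairs. The VTRNA1-3 ratios overlapped between groups, with a log2 difference of -0.36 (exact permutation p = 0.4, adjusted 0.5).

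**Figure D3:**
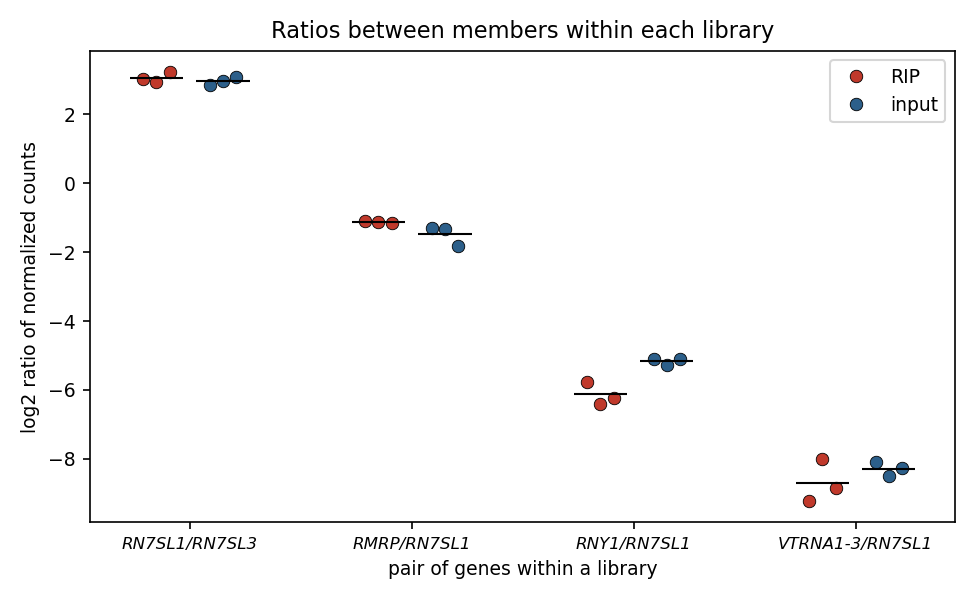
Log2 ratio of normalized counts between 2 members within each library, RIP in red and input in blue, with a bar at the mean of 3 libraries. RNY1 over RN7SL1 is lower in every RIP library than in every input, RMRP over RN7SL1 is higher, and the other pairs overlap.

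In the list of other RNA polymerase III RNAs, which includes the 7SL copies RN7SL4P and RN7SL5P, 3 were called lower in RIP, at far smaller counts. Of 11 in the list, 8 were tested, with a median log2 fold of -3.34 (-2.91 without RIP replicate 2). Only RNU6ATAC and RNY4 also had a RIP mean above 10, at 12.1 and 12.6 normalized counts. The others passed the filter through their inputs, a selection that favours low folds, so the median and the calls are partly set by it. By limma 3 were called lower, 0 higher and 5 in neither direction, and the list's median stayed below 0 under both other scalings tried. DESeq2 on recovered reads called 6 of them lower, and 7 were lower in the values of the authors' deposited table.

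RNU6ATAC, the U6 counterpart of the minor spliceosome, had 17.4, 0 and 18.8 normalized counts in RIP and 337, 391 and 296 in input. Its log2 fold was -5.57 (SE 1.03, limma adjusted p = 0.000861). RNY4, a further Y RNA gene of the same cluster, had 15.7, 0 and 21.9 in RIP and 283, 227 and 379 in input, with a log2 fold of -5.32 (SE 1.06, adjusted p = 0.00141 by limma). Both had no reads in RIP replicate 2. Without that library the log2 folds were -4.16 and -3.89, and both remained called. The authors' deposited table gives -4.83 and -4.57.

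RN7SL5P, a 7SL copy with a pseudogene symbol, was the third called, at -3.52 (SE 1.14, limma adjusted p = 0.0253). It is counted again among the copies below. VTRNA1-2, the neighbour of VTRNA1-3, had 0, 0 and 0.784 normalized counts in RIP and 36.5, 9.14 and 38.4 in input. Its log2 fold of -4.35 did not pass (limma adjusted p = 0.0666), although its groups did not overlap. Without RIP replicate 2 it passed, with an adjusted p of 0.0369 by limma. The U6 genes RNU6-1 (-3.16), RNU6-8 (-3.06) and RNU6-2 (-1.17) and the 7SL copy RN7SL4P (-3.07) did not pass either. In total 5 of the 8 were called when RIP replicate 2 was left out.

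Gene copies of the members, mostly pseudogenes, gave a mixed picture at low counts. Among 171 rows of 7SL copies, 6 were tested, RN7SL4P and RN7SL5P again among them, and 2 were called lower, RN7SL674P at -3.13 (limma adjusted p = 0.0154) and RN7SL5P. Of all tested genes, 21.2% were called lower. The RIP means of RN7SL674P and RN7SL5P were 8.24 and 7.06 normalized counts. Both thus passed the filter through their inputs, a selection that favours low folds. The other tested 7SL copies span 200 to 313 bases, while RN7SL832P spans 2087 bases and is annotated as a long non-coding RNA. Whether its reads came from sequence like 7SL cannot be told from gene counts. RN7SL832P had 113, 0 and 114 normalized counts in RIP and 32.4, 48.0 and 82.6 in input, the only one of these copies with 2 RIP libraries above every input. Its log2 fold was -1.12 (SE 1.53) in limma, 0.50 in edgeR and 1.16 in limma without RIP replicate 2, so its sign was not settled. RN7SL49P (-0.89) and RN7SL181P (0.06) did not pass, with SEs of 1.91 and 2.19. Both calls were lost without input 1 or without input 2, and that for RN7SL5P also without input 3.

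Copies of 7SK were read although RN7SK itself was not analysed here. Of 90 rows, 5 were tested and 2 were called lower, beside 21.2% of all tested genes. RN7SKP255 had 9.94, 7.45 and 11.0 normalized counts in RIP and 114, 122 and 150 in input (log2 fold -3.64, SE 0.72, limma adjusted p = 0.00138). RN7SKP203 had 3.31, 6.71 and 4.70 in RIP and 85.6, 63.9 and 58.1 in input (log2 fold -3.59, SE 0.96, limma adjusted p = 0.00918). With RIP means of 9.45 and 4.91, RN7SKP255 and RN7SKP203 passed the filter through their inputs, a selection that favours low folds. The call for RN7SKP203 was lost without input 1. RN7SKP90 (-3.43), RN7SKP9 (-2.98) and RN7SKP269 (0.19) did not pass. Which 7SK gene the reads of a copy came from cannot be told from counts. None of the 110 rows of Y RNA copies passed the filter, and together they had a mean of 52.6 normalized counts in RIP and 129 in input.

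**Figure D4:**
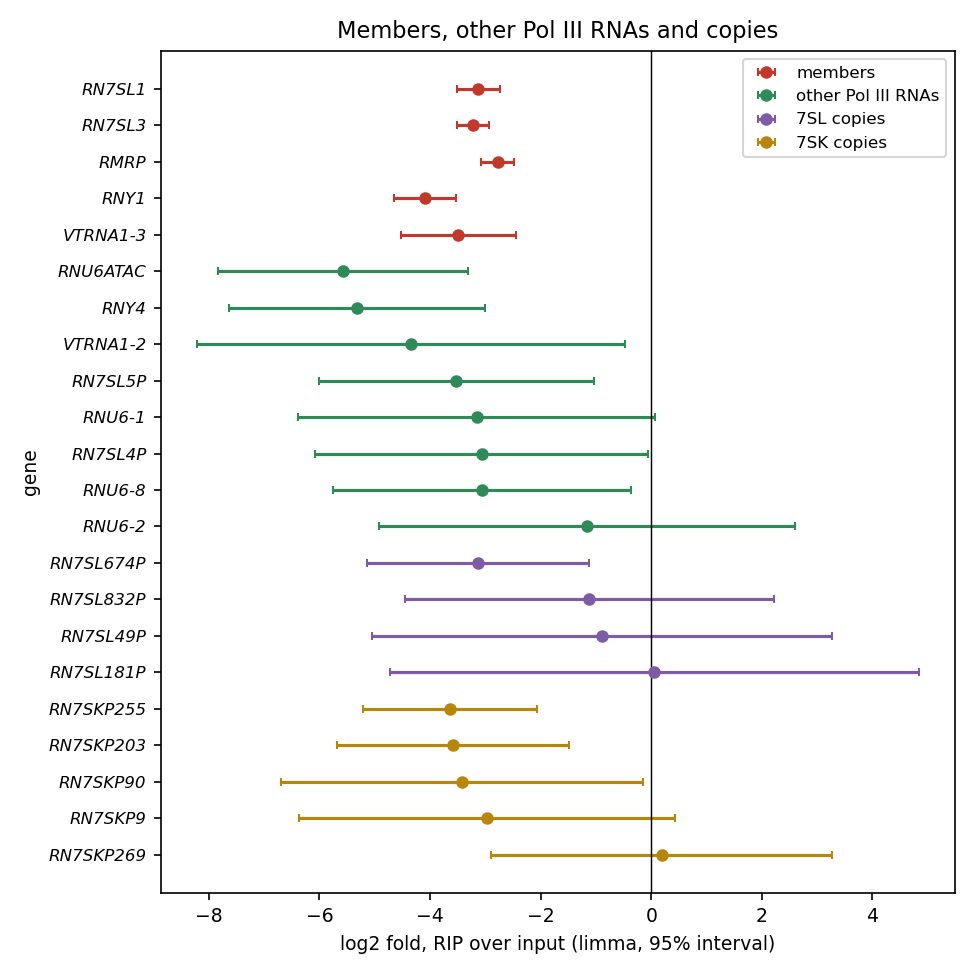
Log2 fold of RIP over input with its 95% interval from limma, for the 5 tested members and the tested genes of 3 lists of related RNAs. Members have the narrowest intervals, all below 0, and several copies with few reads have intervals that span 0.

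The mRNAs of the proteins that bind these RNAs had folds nearer to 0. Of all tested genes, 21.2% were called lower and 22.4% higher, the shares to set beside the counts of these lists. For SRP, 5 of 8 mRNAs of the particle and its receptor were called lower and 0 higher (median log2 fold -0.62), and with total-count scaling 2 (SRP14 and SRP9) were lower and 2 higher. SRP14 and SRP9, whose proteins bind the Alu domain of 7SL together, had log2 folds of -1.67 (SE 0.16, limma adjusted p = 6.26e-06) and -1.13 (SE 0.12, limma adjusted p = 1.9e-05). SRP72 (-0.85) and the receptor subunits SRPRB (-0.73) and SRPRA (-0.51) were called lower too. SRP54, SRP68 and SRP19 did not pass, at -0.26, 0.21 and 0.59.

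The mRNAs of the 7SK particle and of P-TEFb gave the opposite sign for several members. Of 8, 4 were called higher and 1 lower, beside 22.4% and 21.2% of all tested genes. The median log2 fold was 0.73, and with total-count scaling 5 were higher and 0 lower. CCNT2 and CCNT1, the cyclins of P-TEFb, rose by 1.59 (SE 0.16) and 1.20 (SE 0.12) on the log2 scale, with limma adjusted p-values of 9e-06 and 9.03e-06. HEXIM1, the inhibitor of P-TEFb held by 7SK, rose by 1.07 (SE 0.16, limma adjusted p = 0.000181), and MEPCE, which caps 7SK, by 0.99 (SE 0.31, limma adjusted p = 0.0205), a call lost without RIP replicate 3 or without input 1. CCNK, the cyclin of related kinases, was lower at -0.74, a call lost with total-count scaling. CDK9 (0.22), HEXIM2 (0.47) and LARP7 (-0.31), which binds the 3′ end of 7SK, did not pass, though without RIP replicate 1 LARP7 was a second mRNA called lower.

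The mRNAs of RNase P and RNase MRP proteins were split, beside 21.2% of all tested genes called lower and 22.4% higher. Of 10 tested mRNAs, 4 were called lower and 3 higher (median log2 fold -0.35, and 0.15 with total-count scaling). Those called lower numbered 2 without RIP replicate 1, RIP replicate 2 or input 2, and 1 without input 3. RPP38 rose by 1.30 (SE 0.19, limma adjusted p = 0.000138) and RPP25 by 0.61, while POP4 was lower at -0.74 (SE 0.19, limma adjusted p = 0.0069), a call lost with total-count scaling. Of 5 mRNAs for Ro60, La and the vault proteins, 2 were called lower and 0 higher (median -0.16, and 0.33 with total-count scaling). SSB, the gene of La, which binds the uridine 3′ ends of new polymerase III transcripts, was lower by -1.37 (SE 0.14, limma adjusted p = 1.15e-05), and PARP4, a vault protein gene, by -0.45, which turned to 0.046 with total-count scaling and lost its call without input 1. RO60 (-0.16), TEP1 (-0.16) and MVP (0.45) did not pass.

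The polymerase itself showed few calls, beside 21.2% of all tested genes called lower and 22.4% higher. Of 13 subunit mRNAs, 1 was called lower and 2 higher (median 0.10), with POLR1C at 1.22, POLR3F at 0.80 and POLR1D at -0.53 as the 3 smallest p-values. With total-count scaling, which called 6142 of all genes higher, 9 were higher and 0 lower. Of 17 mRNAs for initiation factors and the repressor MAF1, 4 were lower and 5 higher, near those shares (median -0.14, and 0.36 with total-count scaling). GTF3A, which binds the 5S RNA gene, had the lowest p of these, at a log2 fold of -1.89 (SE 0.16, limma adjusted p = 2.6e-06). GTF3C4 (0.68) and GTF3C3 (-0.60) followed.

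**Figure D5:**
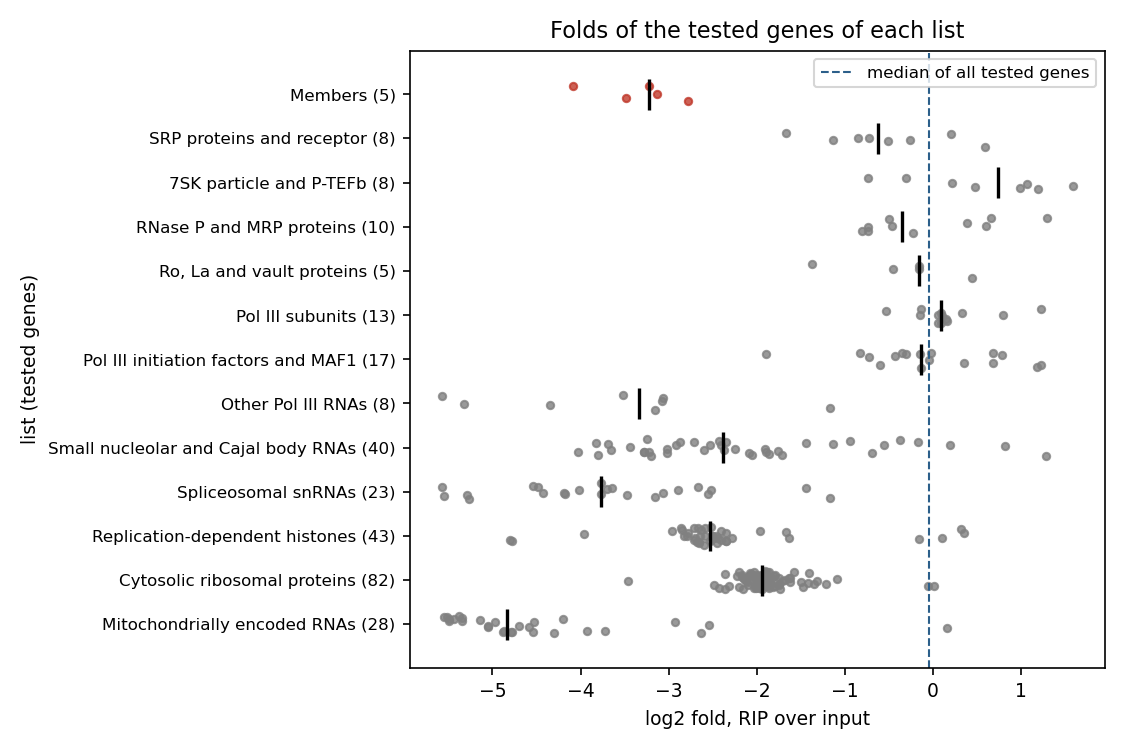
Log2 folds of RIP over input for the tested genes of each list, 1 point per gene, with a black bar at the list's median and a dashed line at the median of all tested genes (-0.04). The members and the lists of short RNAs, mitochondrially encoded RNAs, histone mRNAs and ribosomal protein mRNAs lie to the left. The medians of the protein partner lists run from -0.62 (SRP) to 0.73 (7SK particle and P-TEFb).

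Lists of short RNAs, of mitochondrially encoded RNAs and of replication-dependent histone mRNAs had medians well below 0. Genes low in RIP can pass the filter through their inputs alone, and how many did so in these lists was not counted. Spliceosomal snRNAs had a median log2 fold of -3.77 with 11 of 23 tested called lower, among them RNU4-2 (-3.77) and RNU4-1 (-3.64). Without RIP replicate 2 that median was -2.96 with 14 called, RNU4-2 stood at -2.96 and RNU4-1 at -2.89. Small nucleolar and Cajal body RNAs had a median of -2.39 with 11 of 40 called lower and 29 in neither direction. That share is near the 21.2% of all tested genes called lower. SNORA53 (-2.06), SNORD3A (-2.40) and SNORA14B (-1.76) had the smallest p-values. Without input 1, 2 or 3 the calls among the latter list numbered 5, 6 and 5, and without RIP replicate 2 its median was -1.47 with 14 called. Of 28 mitochondrially encoded RNAs, 25 were called lower (median -4.83), with MT-ATP8 at -5.55, MT-ND4L at -4.87 and MT-ND3 at -4.87. Replication-dependent histone mRNAs, which mostly end in a stem-loop instead of a poly(A) tail, had a median of -2.53 with 39 of 43 lower. H2BC12 (-2.63), H2BC5 (-2.45) and H2BC21 (-2.65) had the smallest p-values. Whether the reads of these 3 genes came from RNA with or without a poly(A) tail cannot be told from gene counts. No gene of these 4 lists was called higher, also with total-count scaling, where their medians ran from -2.00 to -4.38.

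Among the lists of nuclear-encoded polyadenylated mRNAs, 1 was lower nearly throughout, at smaller folds. Of 82 tested mRNAs of cytosolic ribosomal proteins, 80 were called lower (median log2 fold -1.94), including RPL32 (-2.31). With total-count scaling 76 were lower and 2 higher. Among nuclear long non-coding RNAs 1 of 3 was lower, MALAT1 at -1.27 (SE 0.23, limma adjusted p = 0.000777), while NEAT1 (0.01) and KCNQ1OT1 (-0.24) did not pass. The share of mitochondrial and of short RNA moved together with the members, and their part in the members' folds was not tested.

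The mean profile of the 5 tested members over the 6 libraries had its closest matches, by Pearson's r, in CCNB1IP1, WBP11 and BTF3 (r = 0.9998, 0.9993 and 0.9993). Their log2 folds were -1.68, -0.83 and -1.80. Such values are common with 2 separated groups: 1736 of 16749 genes had an r of at least 0.95 with that profile.

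The 3 inputs that have no column of their own entered the authors' mean over 9 libraries, from which their mean can be computed without a spread. That mean was 113582 normalized counts for RN7SL1, 1.03 times the mean of the inputs with columns. It was 63575 for RMRP (1.62 times), 9769 for RN7SL3 (0.699 times), 3439 for RNY1 (1.10 times) and 395 for VTRNA1-3 (1.11 times). Among 7SK copies it was 276 for RN7SKP255, 2.14 times its mean in the inputs with columns. RMRP and RN7SL3 thus lay on opposite sides of the compared inputs. With all 6 inputs the log2 folds ran from -2.99 for RN7SL3 to -4.15 for RNY1, and all 5 stayed negative.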

How the data were processed

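The members and lists were chosen with earlier results of these data known. Per the submitters' processing notes, STAR, featureCounts and DESeq2 were used on GRCh38, and reads were single ends of 75 bp per the labels' protocols. Strand setting, treatment of multiply mapping reads and annotation release were not given in the sources used here. As deposited, the values form a signal: gene counts over the authors' size factor of each library. All values were whole multiples of 1 read within 0.01 (100%), so whole reads were recovered. The authors' log2 fold, its Wald statistic (a score) and its adjusted p-value were deposited too, per the file headers. That log2 fold equalled the ratio of the RIP and input column means with a largest difference of 0.0153 over 12402 genes with a mean over 100.

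Normalized counts were tested as log2(value + 1) in limma 3.58.1 (R 4.3.3) with a trended prior, for genes with a mean of at least 10 over 6 libraries, 3 against 3, with Benjamini-Hochberg adjustment over all 16765 and a threshold of 0.05. Folds on this scale understate changes of genes low throughout a group, while 1 library at 0 among higher ones can enlarge them. Where replicates are not separate cultures, p-values measure a spread that may be technical. On simulated data for this comparison (16754 genes tested), 50 of 50 genes changed by 3 on the log2 scale in each direction were called, and 19 and 26 of 50 changed by -1 and 1. Of the unchanged genes 10 were called. The simulation had the same dispersion for every gene, few changed genes and no library that stood apart, so these rates need not hold in the data. Alternatives used edgeR 4.0.16 and DESeq2 1.42.0 on recovered reads, other scalings, filters and pseudocounts, a replicate block and each library left out. Genes named are the members, the 3 genes of each list with the smallest p (all where 8 or fewer were tested) and the 3 closest profiles. A few genes that this rule names are not reported here. Positions came from RefSeq (GRCh38.p14), matched by symbol for all 10 members. Sequences of the members were not used here. A floor of 3 reads per library stood for a gene with no reads, and intervals cover counting error only, since reads are not independent molecules.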

Additional observations from a re-analysis of the deposited data

How the results depend on the processing

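All 5 tested members stayed lower and called under every alternative that gives a test for them, and all 87 values of their log2 folds outside the reported fit were negative. The alternatives were filters, pseudocounts, scalings, tools, a replicate block, single libraries left out, all 6 inputs (values without a test) and family sums (for RN7SL1 and RNY1). With the column number as a replicate block, 3925 genes were called lower, 4053 higher and 5 members lower. Same-numbered RIP and input columns deviated together across 16765 genes with r = 0.077, 0.049 and 0.087. All other pairings had a negative r, from -0.046 to -0.019. Columns were centred on their group means, so a positive r at the same number makes the others negative on average by construction. These values do not settle whether the columns are paired, and the reported fit treats them as unpaired. With all 6 inputs RMRP moved from -2.78 to -3.15. The log2 difference in the members' share of reads was -2.57, and it was -2.92 without mitochondrially encoded RNA in the total and -3.06 on normalized counts. Genes called lower numbered 3550, and 1651 with total-count scaling or 1779 when a 2-fold change was required. Genes called higher numbered 3758, and 6142 or 1904 likewise. Depth limited RNY3 (24 input reads in all) and VTRNA1-3 (122 RIP reads in all) among the members.

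With total-count scaling, which raised the median of all genes by 0.49, SRP had 2 lower and 2 higher, the 7SK particle 0 lower, RNase P and MRP proteins 0 lower, and Ro, La and vault proteins 1 lower. Polymerase III subunits then had 0 lower and 9 higher, initiation factors 1 lower, ribosomal proteins 2 higher, and small nucleolar and Cajal body RNAs 6 lower. The log2 folds of SRP54 (0.23), LARP7 (0.18), PARP4 (0.046), RO60 (0.34), TEP1 (0.33) and KCNQ1OT1 (0.26) turned positive under it. With all 6 inputs LARP7 stood at 0.057 and KCNQ1OT1 at 0.40, and with size factors from genes that are neither short nor mitochondrial NEAT1 stood at -0.0041.

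The filter of a mean of at least 100 left 0 calls among 7SL and 7SK copies, 6 among small nucleolar and Cajal body RNAs, 7 among snRNAs and 1 SRP mRNA higher, and fewer of the short RNAs were tested. Without a filter, 7SL copies had 0 calls and small nucleolar RNAs 5. By edgeR, 7SL copies had 1 and small nucleolar RNAs 6. DESeq2 called 6 other polymerase III RNAs and 17 snRNAs. The authors' deposited table called 7 other polymerase III RNAs, 4 copies of 7SL, 5 of 7SK, 20 small nucleolar RNAs, 21 snRNAs and 1 SRP mRNA higher.

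Copies with few reads changed sign. RN7SL832P was 0.50 by edgeR, 0.46 by DESeq2, 0.48 in the authors' deposited table and 0.48 with all 6 inputs. RN7SL49P was 0.44 by edgeR, 0.44 by DESeq2 and 0.82 with all 6 inputs. RN7SL181P was -0.18 with a pseudocount of 5, -1.26 by edgeR, -1.31 by DESeq2, -1.28 in the authors' deposited table and -0.62 with all 6 inputs. RN7SKP269 was -0.0018 by DESeq2 and -0.093 with all 6 inputs. The cause of these differences was not tested.

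With 1 library left out, log2 folds ran from -2.27 to 1.16 for RN7SL832P, -1.53 to 0.33 for RN7SL49P, -1.05 to 1.20 for RN7SL181P, -0.61 to 0.90 for RN7SKP269 and -2.10 to 0.0032 for RNU6-2. They ran from -0.32 to 0.070 for RO60, -0.29 to 0.26 for NEAT1 and -0.67 to 0.039 for KCNQ1OT1. Calls lower ran from 2 to 5 for other polymerase III RNAs (5 without RIP replicate 2), 0 to 2 for 7SL copies (0 without input 1 or 2), 1 to 3 for 7SK copies, 5 to 15 for small nucleolar RNAs, 1 to 2 for the 7SK particle, 1 to 4 for RNase P and MRP proteins and 1 to 2 for Ro, La and vault proteins. Calls higher among SRP mRNAs ran from 0 to 1.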

Other observations

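One row without a symbol, described in the table as the RNA component of RNase P, had 1, 0 and 3 reads in RIP replicates 1, 2 and 3 and 0 in each of the inputs with columns, too few for a comparison. The row is not RPPH1 by symbol and was not counted among the members.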
